A study of Mus musculus with 16 samples.

Results

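The Schlafen and Phf11 genes are small families of interferon-induced genes, and 9 of them (Slfn1, Slfn2, Slfn4, Slfn5, Slfn8, Slfn9, Phf11a, Phf11b and Phf11d) are described here across 16 libraries of mouse retinal microglia. They were taken by name from the 55385 genes of the deposited expression table and were chosen by their levels by day in this same table, so their differences between days are descriptions. How many of them passed the threshold of the fit over all genes is given only as a count, from which nothing is read. Each library held RNA of EGFP-positive cells sorted from the retina of Iba1-EGFP mice, in which the promoter of the macrophage and microglia gene Iba1 drives the fluorescent protein. All 4 groups carry this transgene. Day 0 mice had no treatment and were 15 weeks old, day 2 mice were 13 weeks old, day 4 mice 13 weeks and day 7 mice 16 weeks, and the last 3 groups had an optic nerve crush, which injures ganglion cell axons behind the eye. Day and age differ together between day 0 and every later day, so they cannot be told apart there. There were 4 libraries a day, and nothing in the labels says whether they came from separate animals, so any p-value measures the spread between these libraries only, which may be technical. The library titles end in a 6-digit code, and its first 4 digits split replicates 1 and 2 (called batch 1 here) from replicates 3 and 4 (batch 2) on every day. Each batch pools 2 full codes, day 7 shares no full code with day 0, days 2 and 4 share one in 1 batch each, and what the code stands for is not stated. After the day, the titles of day 2 replicates 3 and 4 carry the letter F, called the prefix here, where all other titles carry M. The labels do not say what these letters mean.

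Schlafen genes, named after the German word for sleeping, were found as genes that slow the growth of developing T cells, and many of them are switched on by type I interferon. They fall into short proteins (Slfn1 and Slfn2), intermediate ones (Slfn4) and long ones that carry a helicase-like domain (Slfn5, Slfn8 and Slfn9). The Phf11 genes encode proteins with a PHD finger, a fold found in many chromatin proteins, and human PHF11 has been tied to cytokine transcription in T helper cells and to the repair of broken DNA. Microglia, the resident macrophages of the retina, respond to type I interferon through a cell surface receptor, whose signal reaches genes that carry the interferon-stimulated response element (ISRE) in their promoters.

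The Schlafen genes lie together on chromosome 11 (GRCm38). Slfn2 (ENSMUSG00000072620.3) covers 83065112 to 83070678 on the plus strand, close to Slfn1 at 83116849 to 83122670 and Slfn4 at 83175186 to 83190216 on the same strand. Slfn5, on the plus strand, covers 82951349 to 82964840, and Slfn9 and Slfn8, on the minus strand, cover 82978390 to 82991830 and 83002158 to 83020810. The Phf11 genes lie side by side on the minus strand of chromosome 14, with Phf11a (ENSMUSG00000044703.5) at 59276913 to 59297522, Phf11b (ENSMUSG00000091649.3) at 59320964 to 59341351 and Phf11d (ENSMUSG00000068245.14) at 59347407 to 59365470.

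The Phf11 genes are near copies of each other, which bears on every value below. The transcripts of Phf11a and Phf11b were 96.0% identical over 1180 aligned bases, and 35.2% of the 50-base windows of Phf11a and 47.0% of those of Phf11b also occurred in a transcript of another gene. For Phf11d, whose transcript is longer, that share was 8.09%. Not a single Phf11a, Phf11b or Phf11d value was a whole number of reads in any of the 16 libraries, so part of the reads were divided between genes in the deposited values, and the sources used here do not say how reads with several places were counted. Levels of single Phf11 genes are therefore uncertain. Slfn2 shared only 4.27% of its windows, all with Slfn4, which was hardly detected. The long pair Slfn8 and Slfn9 was 92.8% identical over 3487 bases and shared 14.6% and 11.9% of windows with other genes.

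The promoters were searched for motifs of interferon-responsive genes. All 9 genes were matched by symbol in the RefSeq promoter table (GRCm38.p6), which gives 300 bases for each transcription start, 250 before it and 50 from it on, and holds 10 promoters for them because Slfn8 has 2. The first 4 below belong to the genes with the highest levels after crush. Slfn9 is shown as a further gene with the motif of Phf11a and Phf11b, which Slfn2 and Phf11d do not carry. Each line runs 5′ to 3′ on the strand of the gene and holds 150 bases before the start and 10 from it on. Capitals mark a match of the ISRE core (GAAA, any 2 bases, GAAA) or of the ETS-IRF composite (GGAA, any 2 bases, GAAA), which factors of the ETS and IRF families bind together, searched on both strands. These motifs differ only in the second letter, so they cannot match at the same place on the same strand. In Slfn2 and Slfn9 the match is on the opposite strand and appears as its reverse complement. The windows are chr11:83064962-83065121 (plus) for Slfn2, chr14:59297513-59297672 (minus) for Phf11a, chr14:59341321-59341480 (minus) for Phf11b, chr14:59365481-59365640 (minus) for Phf11d and chr11:82991821-82991980 (minus) for Slfn9.
Slfn2: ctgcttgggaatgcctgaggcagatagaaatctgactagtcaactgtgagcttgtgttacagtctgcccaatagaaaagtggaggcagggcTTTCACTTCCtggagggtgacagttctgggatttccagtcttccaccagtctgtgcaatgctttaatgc
Phf11a: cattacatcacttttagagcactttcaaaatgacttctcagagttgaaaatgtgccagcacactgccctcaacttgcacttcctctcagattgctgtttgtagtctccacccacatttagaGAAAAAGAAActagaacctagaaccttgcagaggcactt
Phf11b: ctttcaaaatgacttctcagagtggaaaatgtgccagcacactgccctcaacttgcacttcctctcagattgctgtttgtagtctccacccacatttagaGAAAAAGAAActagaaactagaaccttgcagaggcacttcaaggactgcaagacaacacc
Phf11d: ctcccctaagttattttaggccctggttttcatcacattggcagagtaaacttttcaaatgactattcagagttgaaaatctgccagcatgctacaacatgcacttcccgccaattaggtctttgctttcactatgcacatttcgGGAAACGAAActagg
Slfn9: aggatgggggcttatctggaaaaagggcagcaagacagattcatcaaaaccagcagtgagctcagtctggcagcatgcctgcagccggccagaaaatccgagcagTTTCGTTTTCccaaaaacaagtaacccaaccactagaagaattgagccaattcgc

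The ISRE core was in 6 of the 10 promoters, those of Slfn5, Slfn9, Phf11a, Phf11b and both of Slfn8. It was in 3.44% of all 32851 promoters in the table, and in 51.4% of the 35 promoters that the table holds for 29 of the 40 genes of an interferon-induced list, which has none of the 9. Counted from the start, the match began at −29 in Phf11a, −50 in Phf11b, −45 in Slfn9, −155 in Slfn5, and −48 and −136 in the 2 promoters of Slfn8, which are the same site seen from different starts. The Phf11a and Phf11b promoters were 98.2% identical over 279 aligned bases, so their matches are copies of one stretch. The ETS-IRF composite was in 2 of the 10, at −59 in Slfn2 and −5 in Phf11d, against 2.72% of all promoters and 8.57% of those of the interferon-induced list. The Slfn1 and Slfn4 windows held neither motif. A match is only a run of letters, and its absence concerns only these letters in this window.

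**Figure D1:**
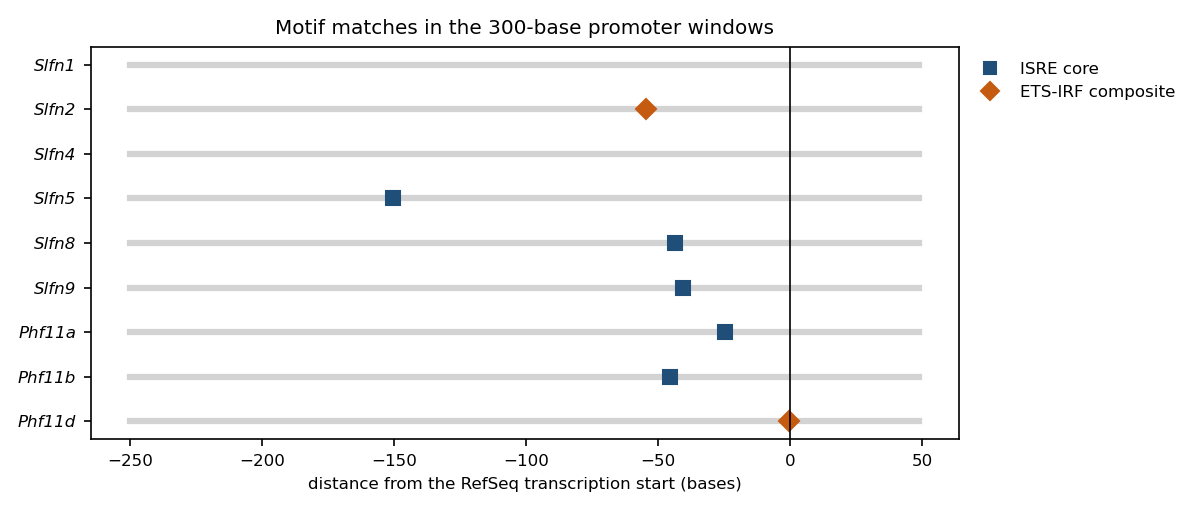
Matches of the ISRE core (squares) and the ETS-IRF composite (diamonds) in the 300-base promoter window of each gene (grey lines, first promoter listed), by distance in bases from the RefSeq transcription start. Symbols stand at the middle of each match; the matches of 5 genes are of the ISRE core, those of Slfn2 and Phf11d of the composite, and Slfn1 and Slfn4 have neither.

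Values are FPKM, fragments that the authors scaled by gene length and library depth, and libraries held 8647276 to 15708302 reads. In a 1 kb gene, 0.0637 to 0.116 FPKM stands for 1 read. A level of 0 allows as many as 3 reads, and such floors speak of counting error alone. All 12 microglia markers examined were present, with a summed level of 3200 to 12915 FPKM in a library. Rod photoreceptor genes were also present, with 1408 to 10120 FPKM summed over 10 genes. Day 0 replicate 1 had the lowest microglia sum and 417.5 FPKM of erythrocyte genes, against at most 6.57 FPKM in the other 15 libraries. In bulk RNA, fewer cells of a type and less RNA per cell cannot be told apart.

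Slfn2, which keeps T cells and monocytes quiescent in mice, was well expressed in the sorted cells after crush and low in those of untreated mice. At day 0 the 4 libraries had 8.46, 0.118, 1.25 and 0 FPKM (replicates 1 to 4). At day 2 they had 17.9, 29.7, 79.7 and 27.0 FPKM, at day 4 they had 53.4, 62.4, 54.5 and 61.4 FPKM, and at day 7 they had 31.9, 76.5, 110.8 and 155.8 FPKM. Every later library lay above every day 0 library, the day 4 libraries lay close together, and the day 7 libraries spread the widest. The day 0 values rest on 135, 2, 27 and 0 reads, and the highest day 7 value on 2553.5.

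The mean was 2.46 ± 4.04 FPKM at day 0, 38.6 ± 27.9 at day 2, 57.9 ± 4.64 at day 4 and 93.7 ± 52.5 at day 7 (SD, n = 4 each). On the log2(FPKM + 1) scale, where low genes change by less than their true ratio, Slfn2 was higher than at day 0 by 3.94 at day 2, 4.73 at day 4 and 5.21 at day 7, each ± 0.66 (SE, limma fit over all 16 libraries with the batch as a covariate). Within batch 1 the changes were 2.89, 4.17 and 3.96, and within batch 2 they were 4.99, 5.29 and 6.46. Without day 0 replicate 1, the library with erythrocyte genes and the highest day 0 value, the changes were 4.76, 5.55 and 6.03. Without both libraries with the title prefix F, the day 2 change was 3.49.

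Markers of other cells that use Slfn2 moved in part with it. Of the 12 T and NK cell markers, the sum was 0.0836 to 31.5 FPKM at day 7 and 0 to 3.94 FPKM at day 0, and it was highest in day 7 replicate 4, which also had the highest Slfn2. Of that 31.5 FPKM, 30.5 FPKM was the T cell receptor gene Trac, while 4 of the 12 (Cd3d, Cd3g, Cd8a and Nkg7) were listed at 0 in all 4 day 7 libraries and the other 7 did not exceed 0.311 FPKM there. Of these, Cd3e reached 0.311 FPKM at day 7 and at most 0.0511 FPKM at day 0, and Klrb1c had 0.0484 to 0.264 FPKM at day 7 and at most 0.0352 FPKM at day 0. At day 4, where Slfn2 was at 53.4 FPKM or more in each library, the T and NK sum was at most 0.548 FPKM. The 10 monocyte markers summed to 6.35 to 55.9 FPKM at day 0, 11.05 to 39.7 at day 2, 17.0 to 38.0 at day 4 and 54.5 to 121.0 at day 7. Of the 5 monocyte markers in the fit, 1 was called higher at day 4 (Ms4a4c) and 2 at day 7 (Ms4a4c and Plac8). Ms4a4c had 47.7 to 108.4 FPKM at day 7 and 0 to 8.11 FPKM at day 0. Plac8 had 6.18 to 16.8 FPKM at day 7 and 0.0243 to 0.720 FPKM at day 0, so neither gene overlapped. F13a1 went the other way without overlap, with 0 to 0.192 FPKM at day 7 and 0.919 to 47.4 FPKM at day 0. So at day 7, 2 of the 5 fitted monocyte markers lay wholly above day 0 and 1 wholly below. F13a1 is also among the 7 markers examined for border-associated macrophages. Of the 5 of these in the fit, 2 lay wholly below day 0 at day 7 and 0 wholly above. Besides F13a1 this was Lyve1, with 0.0485 to 0.348 FPKM at day 7 and 3.36 to 13.9 FPKM at day 0. Ccr2, which marks blood monocytes, was at most 0.0535 FPKM at day 7 and 0.0925 FPKM at day 0. The part of T cells, monocytes or border-associated macrophages in the Slfn2 level was not tested.

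**Figure D2:**
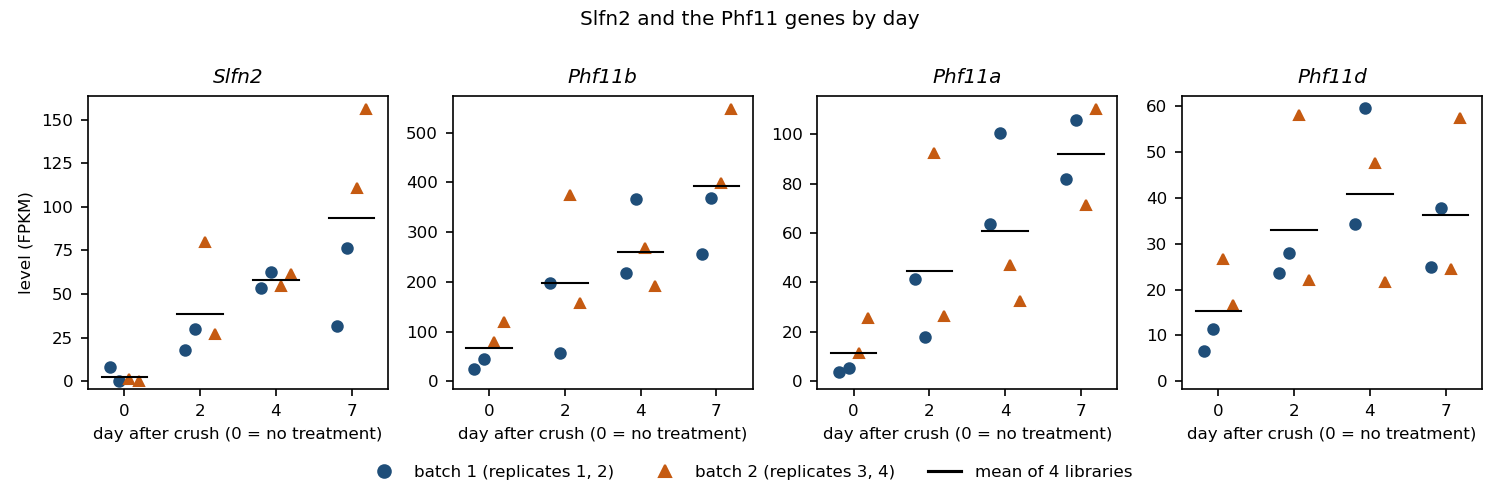
Level (FPKM) of Slfn2, Phf11b, Phf11a and Phf11d in each of the 16 libraries by day, with circles for batch 1, triangles for batch 2 and a line at the mean of 4 libraries. Slfn2 lies at 17.9 FPKM or more in all later libraries and at 0 to 8.46 FPKM at day 0, and the day 0 and day 2 libraries of all 3 Phf11 genes overlap.

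Phf11b was the most abundant of the 9 genes in every library. It had 25.5, 45.2, 78.6 and 119.9 FPKM at day 0, 198.0, 56.4, 374.5 and 158.3 FPKM at day 2, 218.5, 366.4, 267.2 and 190.7 FPKM at day 4, and 255.4, 368.3, 398.2 and 547.5 FPKM at day 7. All day 4 and day 7 libraries lay above all of day 0, while day 2 replicate 2 lay among them. The changes against day 0 were 1.46, 2.12 and 2.7 at days 2, 4 and 7 (each ± 0.45 SE on the log2 scale). Within batch 1 they were 1.61, 3.02 and 3.14, and within batch 2, whose day 0 libraries were the higher pair, 1.32, 1.21 and 2.25.

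Phf11a showed the same order at a lower level. It had 3.59, 5.35, 11.4 and 25.6 FPKM at day 0, 41.2, 18.1, 92.2 and 26.6 FPKM at day 2, 63.8, 100.5, 47.0 and 32.4 FPKM at day 4, and 81.7, 105.6, 71.2 and 110.2 FPKM at day 7. Again only day 2 replicate 2 lay within the day 0 range. The changes were 1.94, 2.52 and 3.21 (each ± 0.55 SE), with 2.39, 3.91 and 4.12 within batch 1 and 1.48, 1.14 and 2.3 within batch 2. The difference between batches was tested for all genes, and among the 8 genes of these families in the fit the lowest adjusted p was 0.391 (limma, Benjamini-Hochberg), for Phf11a at day 4, which does not show that the batches were alike.

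Phf11d had 6.58, 11.5, 26.7 and 16.6 FPKM at day 0, 23.6, 28.0, 58.2 and 22.1 FPKM at day 2, 34.4, 59.6, 47.6 and 21.7 FPKM at day 4, and 25.0, 37.8, 24.4 and 57.5 FPKM at day 7. Its groups overlapped on every day, through day 0 replicate 3, and its mean was 36.2 ± 15.5 FPKM at day 7 and 40.8 ± 16.4 FPKM at day 4 (SD, n = 4 each), which differ by less than the spread between libraries. The changes were 1.10, 1.42 and 1.26 (each ± 0.45 SE). Between days 0 and 7 the balance of the copies differed: the Phf11d level was 0.0612 to 0.105 of the Phf11b level at day 7 and 0.138 to 0.340 at day 0, ranges that do not overlap. The Phf11a level was 0.179 to 0.320 of the Phf11b level at day 7 and 0.118 to 0.214 at day 0, ranges that do.

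Summing the reads of Phf11a, Phf11b, Phf11c, Phf11d and the Phf11 pseudogene, all on this stretch of chromosome 14, sets aside how reads were divided among these 5 copies. The sum was 173.7 ± 95.3 RPM (reads per 1000000 reads of the library) at day 0, 470.4 ± 285.2 at day 2, 610.4 ± 212.5 at day 4 and 805.8 ± 231.3 at day 7 (SD, n = 4 each). Its range was 69.4 to 267.6 at day 0, 229.1 to 880.1 at day 2, 390.4 to 893.4 at day 4 and 568.5 to 1118.6 at day 7, so only the day 2 libraries overlapped with day 0. Phf11b gave 57.5% of these reads at day 7 and 45.2% at day 0 on average.

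**Figure D3:**
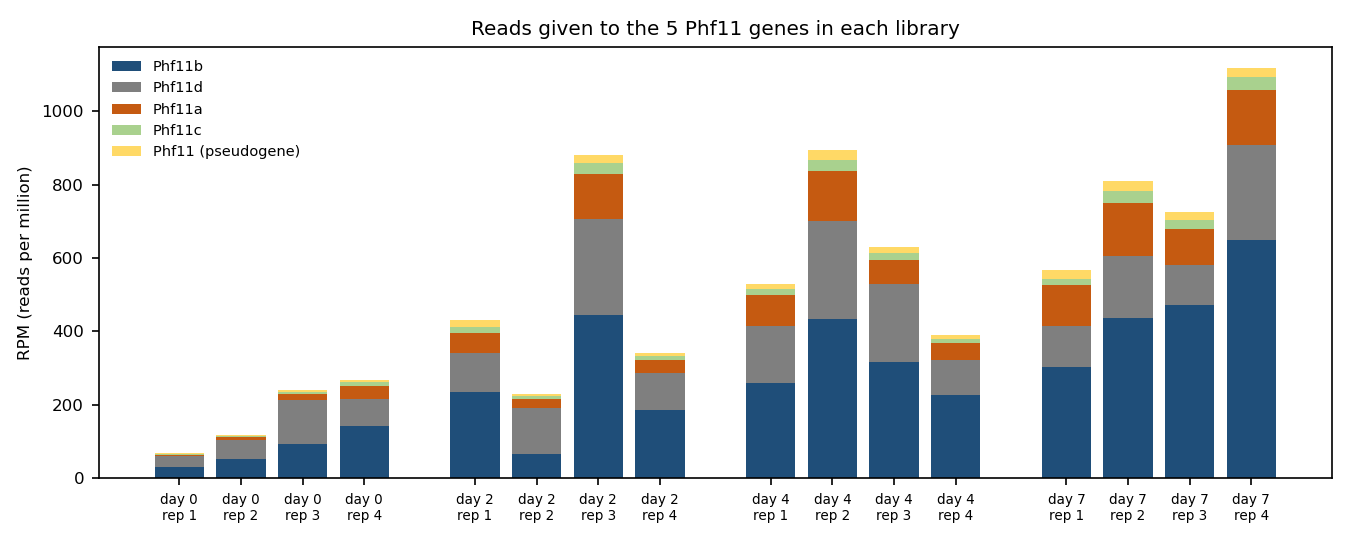
RPM given to each of the 5 Phf11 genes, stacked, in each library by day and replicate. The stacks reach 568.5 to 1118.6 RPM at day 7 and 69.4 to 267.6 RPM at day 0, and Phf11b and Phf11d make up most of each.

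Phf11c, a gene of the same cluster outside the 9 that was tested, had 4.80 to 10.3 FPKM at day 7 and 0.773 to 2.86 FPKM at day 0, and its changes of 0.96, 1.30 and 1.75 (each ± 0.44 SE) did not pass (limma, adjusted p = 0.501, 0.101 and 0.127 at days 2, 4 and 7), though all 4 libraries of days 4 and 7 lay above day 0. The unprocessed pseudogene Phf11 (ENSMUSG00000090881.3), chosen after its values were seen, had 2.73 to 10.7 FPKM at day 0, 6.68 to 37.1 at day 2, 17.2 to 43.6 at day 4 and 39.7 to 46.0 at day 7. Its changes were 1.64, 2.06 and 2.8 at days 2, 4 and 7 (each ± 0.50 SE), given without a test for that reason, and all 4 libraries of days 4 and 7 lay above day 0. Phf11 shares 27.1% of its windows with other genes, mostly Phf11b, so its value is uncertain.

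The other Schlafen genes had lower means than Slfn2 after crush, though Slfn1, Slfn8 and Slfn9 had higher ones at day 0 (3.21, 2.63 and 4.43 FPKM). Slfn5, whose human counterpart restricts herpesvirus, had the next highest mean at days 4 and 7 but not at day 2. It had 2.08, 3.49, 0 and 4.01 FPKM at day 0, and 4.65, 0.106, 3.39 and 0.0787 at day 2. Its values were 4.26, 5.80, 6.88 and 2.4 at day 4, and 4.98, 8.18, 7.66 and 6.81 at day 7. All day 7 libraries lay above all of day 0, and the day 2 and day 4 libraries overlapped with it. The changes were −0.31, 0.95 and 1.44 (each ± 0.65 SE). An antisense gene, Slfn5os, covers 8.84% of the exon bases of Slfn5, and since the Nextera XT kit leaves strand unmarked, reads there cannot be told apart. Slfn5os itself had 2.01, 5.77, 7.00 and 6.31 FPKM at day 7 and 1.99, 1.56, 0 and 0 at day 0.

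Slfn8 and Slfn9, the long pair of similar sequence, were high in single libraries. Slfn8 had 10.1 FPKM in day 0 replicate 3, 16.9 in day 2 replicate 4, 5.48 in day 4 replicate 2 and 8.58 in day 7 replicate 2, and did not pass 1.43 FPKM in the remaining 12. Slfn9 had 0.0175, 0.132, 1.41 and 16.2 FPKM at day 0, 8.27, 5.39, 1.32 and 4.15 at day 2, 3.2, 1.11, 0 and 2.86 at day 4, and 3.53, 7.79, 13.5 and 0.0199 at day 7. The day 0 ranges of both genes took in almost all later values. The changes were 0.09, −0.03 and 0.28 (each ± 1.05 SE) for Slfn8, and 0.97, −0.12 and 0.91 (each ± 0.96 SE) for Slfn9. For Slfn9 the batches went opposite ways, with 2.84, 1.47 and 2.56 in batch 1 and −0.90, −1.71 and −0.74 in batch 2, where its highest day 0 library lies.

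Slfn1, which halts the growth of thymocytes when overexpressed, was listed at 0 in 10 of 16 libraries. It had 0, 1.90, 0 and 10.95 FPKM at day 0, 0 in all 4 at day 2, 0, 3.34, 0 and 4.95 at day 4, and 0, 3.38, 0 and 3.98 at day 7. The libraries above 0 were replicates 2 and 4 of days 0, 4 and 7, with 36 to 281 reads each, and a 0 at day 2 allows 0.115 to 0.186 FPKM. No change is given for day 2, and those at days 4 and 7 were −0.11 and −0.17 (each ± 0.84 SE). Slfn4, a myeloid member induced by interferon and Toll-like receptors, did not exceed 0.158 FPKM (6 reads) in any library and was not fitted. Its mean was 0.0256 FPKM at day 0, 0.0766 at day 2, 0.0521 at day 4 and 0.0525 at day 7.

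**Figure D4:**
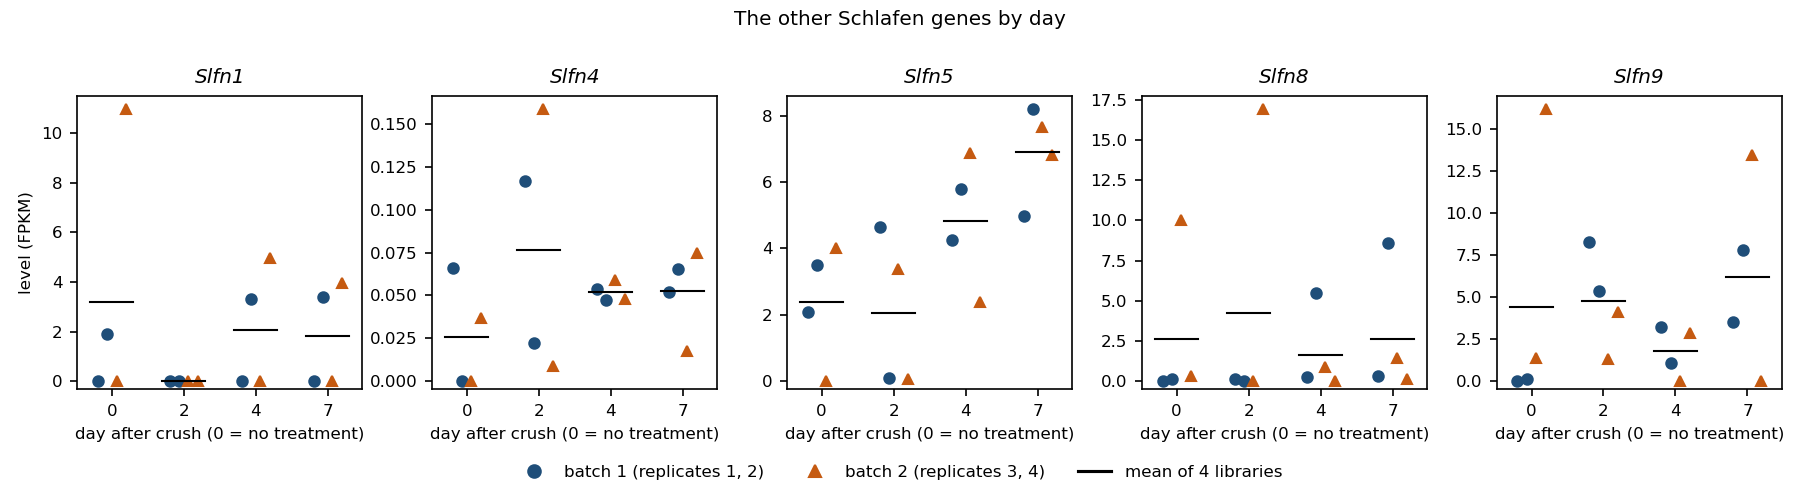
Level (FPKM) of Slfn1, Slfn4, Slfn5, Slfn8 and Slfn9 in each library by day, with circles for batch 1, triangles for batch 2 and a line at the mean of 4 libraries. Each panel has its own scale; Slfn4 stays at or under 0.158 FPKM, and Slfn8 is set by a single high library at day 0 and at day 2.

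Of the remaining Schlafen genes, none passed the filter of at least 1 FPKM in 4 libraries. Slfn3 and the pseudogene Slfn10-ps had their highest values, 6.10 and 8.16 FPKM, in day 7 replicate 4, and were at most 1.45 and 2.25 FPKM elsewhere. Slfn14 and the Schlafen-like gene Slfnl1 did not exceed 0.329 and 0.263 FPKM.

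Of the 9 genes, 8 passed the filter, and 1 of them was past the threshold of the fit at day 2 (Slfn2) and 3 each at days 4 and 7 (Slfn2, Phf11a and Phf11b), all higher. Over all 14795 genes in the fit, 0.311% were called at day 2, 5.34% at day 4 and 0.406% at day 7 (adjusted p under 0.05), with 0.25%, 4.62% and 0.27% of all genes called higher and 0.0608%, 0.716% and 0.135% called lower. Since the 9 were chosen by these same values, their count is a description and no test of them, and it is not read against that share. All 4 later libraries lay above day 0 in 1 gene at day 2, 3 at day 4 and 4 at day 7, and in 3.37%, 12.6% and 2.51% of all genes.

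Genes of bipolar cells and of Mueller glia and astrocytes were lower by their median at days 2 and 4. The 10 bipolar cell genes summed to 58.2 to 403.3 FPKM at day 0, 15.2 to 108.4 at day 2, 0.452 to 58.3 at day 4 and 76.7 to 362.0 at day 7. Their median changes were −2.1, −1.73 and −0.87, and 0, 3 and 0 of them were called lower (limma; 6, 7 and 0 at an unadjusted p under 0.05). The 10 Mueller glia and astrocyte genes had median changes of −1.64, −2.01 and −0.01, with 0, 1 and 0 called lower (5, 5 and 1 at an unadjusted p under 0.05). Rod genes, 10 in the fit, had median changes of −0.23, −0.58 and 0.29, and 0 were called on any day. The part of these differences in the day 2 and day 4 changes was not tested. Of the 30 cell cycle genes, 6 were called higher at day 2, 13 at day 4 and 2 at day 7. Their sum was 104 to 145 FPKM at day 0 and 708 to 1402 at day 2. It was 426 to 1526 at day 4 and 160 to 402 at day 7, lower than at days 2 and 4. Stmn1 alone had 305 to 464 FPKM at day 2. The Slfn2 mean was highest at day 7, though those libraries (31.9 to 155.8 FPKM) spread around the day 4 ones (53.4 to 62.4 FPKM). Within batch 1 the Slfn2 change was 4.17 at day 4 and 3.96 at day 7, and within batch 2 it was 5.29 and 6.46. A link between Slfn2 and the cell cycle genes was not tested.

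**Figure D5:**
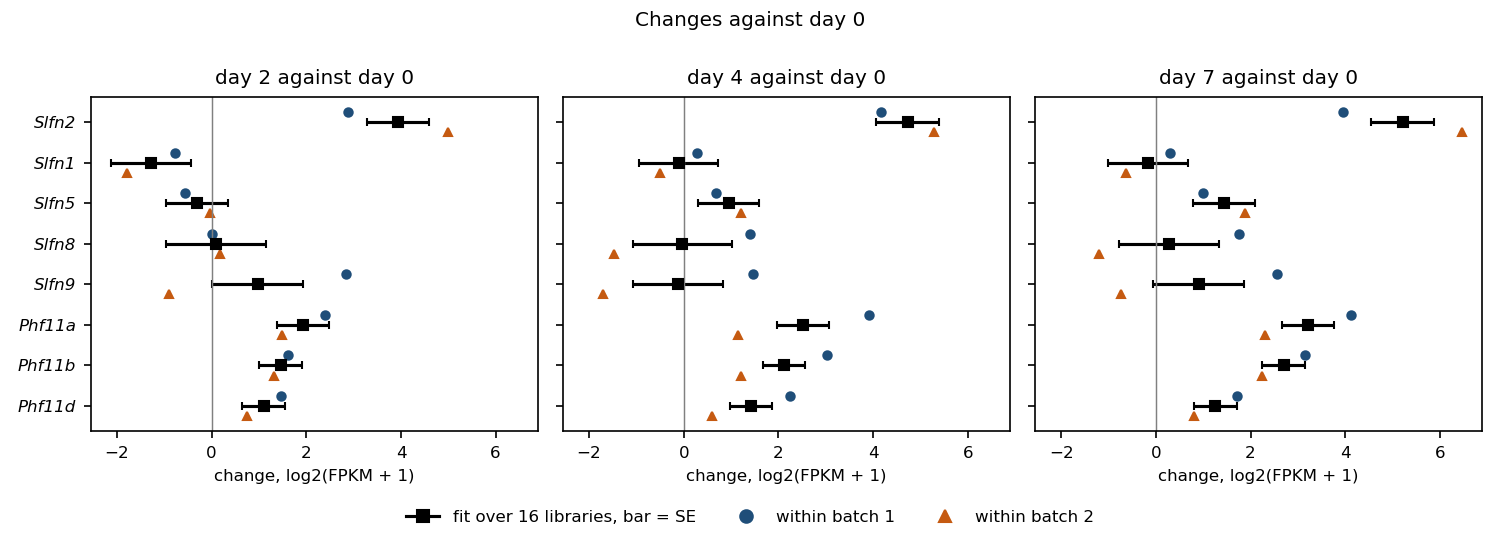
Change against day 0 in log2(FPKM + 1) of the 8 genes in the fit at days 2, 4 and 7, with squares and bars for the estimate and SE over 16 libraries, circles for batch 1 and triangles for batch 2. Slfn2 and the 3 Phf11 genes lie above 0 in both batches on every day, and Slfn8 and Slfn9 lie on opposite sides of 0 in the batches at days 4 and 7; the Slfn1 point at day 2 stands for a group listed at 0 and depends on the pseudocount.

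Genes of the interferon pathway outside the 9 were taken from lists and read from the same fit. The lists were chosen with earlier results of these data known, so their counts are descriptions too. Of 40 interferon-induced genes, 38 were in the fit, and 0 were called at day 2, 8 at day 4 and 5 at day 7 (limma), all higher. Over all genes in the fit, 0.311%, 5.34% and 0.406% were called on these days. Of the 38, at an unadjusted p under 0.05 (limma), 9 were higher at day 2, 14 at day 4 and 23 at day 7, and 0 were lower on each day. Their median change was 0.69, 0.99 and 1.95, against 0.04, 0.16 and −0.07 over all genes. Among the called genes, the largest changes at day 4 were those of Cxcl10, a chemokine for T cells, which rose by 5.05 ± 0.93 (adjusted p = 0.0076) with a mean of 83.5 FPKM against 4.47 FPKM at day 0, the RNA sensor Oas1a (3.72 ± 0.74, adjusted p = 0.0109) and the ubiquitin-like Isg15 (2.48 ± 0.59, adjusted p = 0.0264).

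Among the called genes at day 7, the largest changes were those of Ifit1, which binds foreign RNA, with 67.1 FPKM against 2.82 FPKM at day 0 (4.79 ± 0.86, adjusted p = 0.0293), Ifi27l2a (3.64 ± 0.49, adjusted p = 0.00578) and the DNA sensor Ifi204 (3.21 ± 0.43, adjusted p = 0.00517). In all 6 of these changes, 4 of 4 libraries lay above all of day 0, as in 12.6% of all genes at day 4 and 2.51% at day 7. Since the 6 were picked by their changes, this is a description. The day 4 calls of Cxcl10 and Oas1a and the day 7 calls of Ifi27l2a and Ifi204 held in all 16 fits that each left out 1 library. Cxcl10 and Oas1a were not called at day 7, and the day 4 call of Ifi27l2a held in 2 of the 16. The call of Isg15 was lost without day 0 replicates 1 or 4 or day 4 replicates 1, 2 or 3 (2.06 to 2.42), and that of Ifit1 without day 0 replicates 2, 3 or 4 or day 7 replicates 1, 3 or 4 (4.3 to 4.76). Of 17 receptor and signalling genes, 16 were in the fit and 1 was called, Usp18, which dampens the type I receptor and rose by 2.32 ± 0.45 at day 7 (adjusted p = 0.0414). That call held in 2 of the 16 fits, those without day 2 replicates 2 or 3, and the change was 2.15 to 2.57 in all 16. At day 2, 2 of the 16 genes were higher at an unadjusted p under 0.05 (limma) and 0 lower. At day 4, 4 were higher and 2 lower, and at day 7, 4 were higher and 0 lower. The 18 interferon genes themselves were hardly detected: none reached the filter, 1 (Ifna4) was listed at 0 in every library, and the highest value was 0.723 FPKM, of Ifnl2 in day 7 replicate 4.

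The genes whose level ran most like each member were ranked by Pearson correlation of log2(FPKM + 1) over the 16 libraries, among 5770 other genes in the fit with a mean of at least 5 FPKM. These points share depth, batch and day, and the values are descriptions. Phf11a and Phf11b ran closest to each other (r = 0.97) and to the pseudogene (0.97 and 0.96), which share reads, and then to Bst2, which tethers budding viruses (0.88 and 0.89). Phf11d ran with Bcl2a1a (0.87), an inhibitor of cell death, with Sp110 (0.85), a nuclear body protein, and with Phf11a (0.84). Slfn2 correlated with Phf11a, Phf11b and Phf11d at 0.75, 0.73 and 0.66.

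The 10 genes most like Slfn2 were Mtch2 (0.87), Rpa3 (0.84), Lsm4 (0.84), Micos10 (0.82), Rbm3 (0.82), BC028528 (0.81), Ifitm3 (0.81), Mycbp (0.80), Ptrhd1 (0.80) and Ifi211 (0.80). Of these 10, 2 are known as interferon-induced, Ifitm3 at rank 7 and Ifi211 at rank 10. The share of such genes among the 5770 was not counted. Slfn5 ran with Mphosph6 (0.83), Oas1g (0.79) and Ndufc2 (0.78). Slfn9 ran with Mindy3 (0.76), Tnni2 (0.76) and Oxct1 (0.73), Slfn8 with Cab39l (0.76), Lair1 (0.61) and Rnf103 (0.61), and Slfn1 with Mri1 (0.69), Fbxw2 (0.68) and Mrpl9 (0.67).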

How the data were processed

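RNA was measured in 16 libraries of sorted Iba1-EGFP-positive retinal cells, 4 a day. Per the submitters' processing notes, the authors mapped reads with STAR 2.7.2b and counted them with featureCounts 1.6.1 on GRCm38.p6 (mm10). The deposited table holds FPKM. Reads were recovered from FPKM times gene length, in steps of 0.01 read, and 46.9% to 63.4% of the values above 0 were whole reads (tolerance of 0.02 steps), so the values were not tested as counts.

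The 14795 genes that reached 1 FPKM in 4 or more libraries were fitted with limma 3.58.1 (R 4.3.3, lmFit and eBayes with trend) on log2(FPKM + 1), with a mean per day and the batch; the log2 values were computed here from the deposited FPKM. Tests were two-sided with Benjamini-Hochberg adjustment over all genes and a threshold of 0.05. A second fit with a mean for each day and batch gave the within-batch changes. Motifs, transcript identities and shared windows came from RefSeq and GENCODE sequences (Biopython 1.88), and a further motif that was searched is not reported here. The 9 genes and all lists were chosen with earlier results of these data known. Named outside them were the other Schlafen genes and Phf11c, the 3 most changed called genes of each interferon list, and the 3 genes most correlated with each member (10 for Slfn2). Alternatives were another pseudocount, filter, scaling or batch term, a replicate block, and leaving out libraries.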

Additional observations from a re-analysis of the deposited data

Results flagged for a closer look

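A library was marked where its gap to the nearest of the 4 libraries of its day exceeded Dixon's 95% critical share of their whole range for 4 values, on log2(FPKM + 1) or on FPKM. Among 35 groups (a gene on a day), 2 were marked on the log2 scale and 7 on the FPKM scale, and chance flags about 1 in 20 groups. Both groups on the log2 scale, which were also marked on FPKM, concern Slfn8. Day 2 replicate 4 had 16.9 FPKM (971 reads), while the other 3 libraries of that day had 0.0219 to 0.118 FPKM. Day 0 replicate 3 had 10.1 FPKM (533 reads), while the other 3 of that day had 0 to 0.320 FPKM.

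On the FPKM scale alone, Slfn8 was also marked in day 4 replicate 2 (5.48 FPKM, the others at most 0.912) and day 7 replicate 2 (8.58 FPKM, the others at most 1.43). Slfn9 was marked in day 0 replicate 4 (16.2 FPKM, the others at most 1.41), Slfn2 in day 0 replicate 1 (8.46 FPKM, the others at most 1.25) and Phf11d in day 2 replicate 3 (58.2 FPKM, the others 22.1 to 28.0).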

How the results depend on the processing

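The direction of Slfn2, Phf11a, Phf11b and Phf11d held at every day under all 23 alternatives. The count of the 9 genes called at day 2 (1 as reported) was 0 without a filter on low values and 0 without both libraries with the prefix F. At day 4 (3 as reported) it was 1 without a filter and 1 with median-of-ratios factors, and at day 7 (3 as reported) it was 1 without a filter, the gene being Slfn2 each time. Median-of-ratios factors moved the median of all genes by −0.11, −0.32 and −0.01 at days 2, 4 and 7, and Phf11a and Phf11b at day 4 became 2.07 and 1.65. Leaving out 1 library gave counts of 0 to 1 at day 2, 1 to 4 at day 4 and 1 to 3 at day 7. Slfn2 lost its day 2 call without day 0 replicate 2 (3.64) and without day 2 replicates 2, 3 or 4 (3.93, 3.54 and 4.09), and kept those of days 4 and 7. Phf11a lost the day 4 call without day 0 replicate 1 (2.19) and day 4 replicates 1 and 2 (2.39 and 2.15), and Phf11b without day 4 replicate 2 (1.79). At day 7 both lost theirs without day 0 replicates 1 and 2 (2.88 and 3.05 for Phf11a, 2.41 and 2.71 for Phf11b) and day 7 replicates 2 and 4 (3.06 and 3.18, 2.58 and 2.64), and Phf11a also without day 7 replicate 1 (3.2). Phf11d was called at day 4 (1.77) without day 4 replicate 4. The cause was not tested.

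Of all genes, 46 were called at day 2, 14 of them without a filter, against 126 with the full title code and 1 without the prefix F libraries. At day 4 there were 790 (86.6% higher), against 308 without a filter, 277 with median-of-ratios factors (57.0% higher) and 379 with the full code. At day 7 there were 60, against 38 with a pseudocount of 0.1, 13 without a filter, 39 without the batch and 28 with the full code. Leaving out 1 library gave 8 to 77, 267 to 955 and 16 to 57. Of the interferon-induced genes, 1 was called at day 2 with the full code (0 as reported), 4 at day 4 without a filter, 3 with median-of-ratios factors and 4 with the full code (8 as reported), and 3 at day 7 with a pseudocount of 0.1 and 3 without a filter (5 as reported). Leaving out 1 library gave 0 to 0, 3 to 10 and 3 to 6.

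Changes near 0 turned sign. Slfn8 was −0.18 at day 2 with a pseudocount of 0.1 and −0.97 without the prefix F libraries, and 0.23 and 1.47 at day 4 with the pseudocount and the full code. Slfn9 at day 4 was 0.20 and 0.57 under these, and Slfn1 at day 4 was 0.07 with the full code. Leaving out 1 library gave −0.82 to 0.13 for Slfn5 at day 2, −0.95 to 0.90, −0.72 to 0.79 and −0.52 to 1.09 for Slfn8 at days 2, 4 and 7, −0.63 to 0.67 and −0.69 to 0.61 for Slfn1 at days 4 and 7, and −0.61 to 0.86 for Slfn9 at day 4.

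Whether the replicate numbers pair the libraries is not stated in the labels. In their deviations from the day means, same-numbered libraries of different days correlated by 0.0446 on average (−0.0562 to 0.234, at or under 0.1 in 19 of 24 pairs). Low correlations over all genes cannot decide this. With a replicate block in place of the batch, 1, 3 and 1 of the 9 genes were called at days 2, 4 and 7, with 30, 566 and 22 of all genes, and Phf11a and Phf11b (3.21 and 2.7 at day 7) were no longer called at day 7. Depth limits Slfn1 and Slfn4 most, whose values rest on at most 281 and 6 reads.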
